A study of Homo sapiens with 6 samples.

Results

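The 9 transcripts described here encode chloride channels, chloride/proton exchangers and related proteins. They are the anoctamins ANO1, ANO6 and ANO10, the volume-regulated channel subunits LRRC8A and LRRC8D, the CLC proteins CLCN3 and CLCN7, and the CLIC proteins CLIC1 and CLIC4. They were taken by gene symbol from a count table of 15379 symbols, and 9 of 9 passed the filter on low counts that left 12056 genes. The symbols were selected on family membership with the measured log2 changes and adjusted p-values of the same 41C against 37C comparison already known, ANO1 among them. Counts, changes and p-values in that comparison are therefore a description of these genes and support nothing beyond it.

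The cells were HaCaT, an immortalised line of human keratinocytes. In 3 libraries the cells had been held at 41C for 1 hour on each of 3 days, and in the other 3 at 37C for 1 hour on each of 3 days. The series title links heat on keratinocytes to the channel TRPV3 and to calcium, the signal that also opens ANO1. Polyadenylated RNA was sequenced with a stranded kit, and totals ran from 20139202 to 20856144 counts per library at 41C and from 19659112 to 19745664 at 37C. Nothing in the labels says that replicates came from separate cultures. The p-values therefore cover only the spread between these libraries, which may be technical. On the log2 CPM scale, libraries correlated at 0.992 to 0.994 between temperatures and at 0.992 to 0.995 within one. The number of all genes past the threshold was 131 with all 6 libraries. Leaving out 37C replicate 3 took it to 805, and leaving out 41C replicate 2 took it to 5.

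Chloride is moved across the plasma membrane by channels that open on different signals. ANO1 opens when cytosolic calcium rises, ANO6 is a calcium-activated scramblase that moves phospholipids between membrane leaflets and also conducts ions, and channels of the LRRC8 family open when a cell swells. LRRC8A is the subunit every such channel needs, while its partners, LRRC8D among them, set what else besides chloride may pass. CLCN3 and CLCN7 exchange chloride for protons in endosomes and lysosomes, and CLIC proteins exist in soluble and membrane-associated forms, with a debated role as channels.

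Markers of the labelled cell type were checked first. All 8 keratinocyte markers were present (KRT5, KRT14, TP63, ITGA6, COL17A1, DSG3, KRT6A and KRT16), with a summed level of 2792 to 2939 FPKM at 41C and 2427 to 2670 FPKM at 37C. FPKM is the level per kilobase of gene length. Melanocyte markers summed to 0.755 to 1.37 FPKM at 41C and 0.858 to 1.18 FPKM at 37C (2 of 5 markers analysed), fibroblast markers to 2.77 to 3.21 and 2.50 to 2.97 FPKM (5 of 6), and immune markers to 0.0157 to 0.0679 and 0 to 0.0422 FPKM (3 of 3). The endothelial pair summed to 3.94 to 5.003 FPKM at 41C and 4.59 to 6.54 FPKM at 37C, nearly all of it CDH5. The keratinocyte sum was higher in each library at 41C than in any at 37C, and most of it was the basal keratins KRT5 and KRT14. By edgeR 4 of the 8 rose at 41C, while 0.821% of all tested genes passed as higher. The 4 were COL17A1 (log2 change 0.26, edgeR adjusted p = 0.00409), KRT14 (0.22, edgeR adjusted p = 0.0427), KRT6A (0.21, edgeR adjusted p = 0.0421) and ITGA6 (0.21, edgeR adjusted p = 0.0424). KRT5 (0.19, edgeR adjusted p = 0.0806), TP63, DSG3 and KRT16 did not pass. The part of these markers in the values below was not tested.

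The windows before the starts of ANO1 and LRRC8A, the pair with the largest changes among the 9, are printed to show the bases upstream of these genes. They are RefSeq sequences on GRCh38.p14, the 250 bases before a start, read 5′ to 3′ along the gene, and capitals mark the CG dinucleotides.
ANO1, chr11:69985657-69985906, plus strand: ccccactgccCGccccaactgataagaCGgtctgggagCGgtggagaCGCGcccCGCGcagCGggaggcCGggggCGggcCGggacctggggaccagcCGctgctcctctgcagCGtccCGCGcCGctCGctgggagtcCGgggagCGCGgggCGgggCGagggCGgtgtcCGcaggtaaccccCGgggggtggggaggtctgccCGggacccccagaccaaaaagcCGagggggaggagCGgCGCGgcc
LRRC8A, chr9:128881883-128882132, plus strand: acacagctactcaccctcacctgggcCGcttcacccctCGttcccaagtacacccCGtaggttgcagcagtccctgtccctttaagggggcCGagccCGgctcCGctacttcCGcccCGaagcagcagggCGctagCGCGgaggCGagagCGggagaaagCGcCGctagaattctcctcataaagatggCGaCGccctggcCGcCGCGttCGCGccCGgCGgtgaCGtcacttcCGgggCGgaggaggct
The ANO1 window held 30 CG dinucleotides and the LRRC8A window 27. The LRRC8A start used here lay 0.021 kb from the gene start of GENCODE release 29. The ANO1 start lay 92.4 kb before the GENCODE gene start, and gene counts do not tell which start was used.

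All 9 genes matched RefSeq promoter windows of 300 bases (13 windows, several genes having more than 1 start). The heat shock element, the binding site of the heat shock factors, was searched as its paired units GAANNTTC and TTCNNGAA, each of which reads the same on both strands. Neither was found in the 13 windows, against 13.5% of all 35116 windows with at least 1 of them. The GC box GGGCGG, searched on both strands, was in 10 of 13 windows and in 44.95% of all windows. The palindrome TGACGTCA, the cyclic AMP response element, was looked for after the LRRC8A sequence had been read. It was in 2 of 13 windows (LRRC8A and CLCN3) and in 1.85% of all windows. These are windows at RefSeq starts, not all at the GENCODE gene start. The only ANO6 window lay 76.7 kb inside the GENCODE gene, 1 of the ANO10 windows 69.6 kb inside, the CLCN3 windows 7.95 and 47.6 kb inside, and the CLIC1 window 3.23 kb inside. The 13 windows are not independent, and a match or its absence says only which letters stand there.

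The levels per gene length covered a wide range. CLIC1 stood highest with 255.1 ± 5.23 FPKM at 41C and 269.3 ± 7.21 FPKM at 37C (SD, n = 3 each), above 98.4% of the genes tested. LRRC8A followed with 56.7 ± 2.28 FPKM at 41C and 51.0 ± 1.09 FPKM at 37C, and then ANO1 with 47.7 ± 0.448 and 41.5 ± 1.77 FPKM. Below them were CLIC4 (37.4 ± 0.135 FPKM at 41C and 38.9 ± 2.97 FPKM at 37C), ANO6 (29.1 ± 0.890 and 27.0 ± 1.74 FPKM) and LRRC8D (24.6 ± 1.63 and 24.3 ± 0.636 FPKM). CLCN7 had 18.8 ± 1.75 FPKM at 41C and 18.5 ± 0.121 FPKM at 37C, and CLCN3 18.3 ± 0.946 and 17.5 ± 1.71 FPKM. ANO10 was lowest with 2.43 ± 0.137 FPKM at 41C and 2.63 ± 0.105 FPKM at 37C, above 25.0% of the genes tested.

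In this order the ranges of most neighbours over libraries did not overlap. CLCN7 and CLCN3 overlapped at both temperatures. ANO1 and CLIC4 overlapped at 37C (39.6 to 43.0 FPKM for ANO1 and 35.5 to 41.1 FPKM for CLIC4) and were apart at 41C (47.3 to 48.2 FPKM and 37.3 to 37.6 FPKM). No test was made between genes, which share their libraries.

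**Figure D1:**
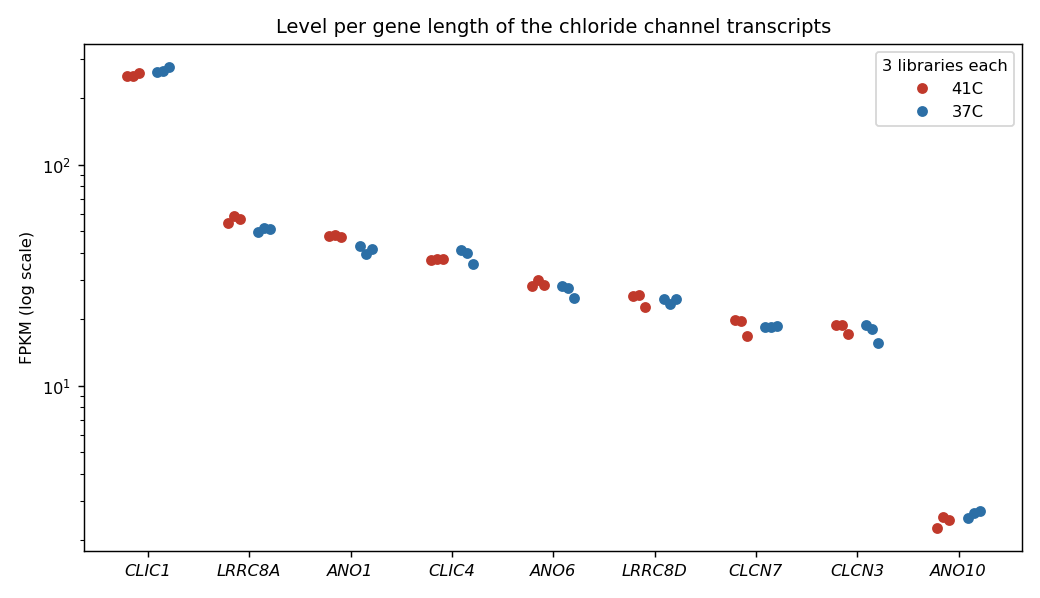
FPKM of each of the 9 transcripts on a log axis, with 1 point per library, 3 at 41C left of 3 at 37C. CLIC1 lies near 262.2 FPKM on average, ANO10 near 2.53 FPKM, and the other 7 between 17.9 and 53.9 FPKM.

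The described genes made up most of the transcript level of their families. ANO1 made up 57.2 ± 0.815% of the summed FPKM of the 8 anoctamins analysed at 41C and 54.5 ± 1.73% at 37C, and ANO6 34.9 ± 0.300% and 35.4 ± 1.67%. ANO10 had 2.92 ± 0.122% at 41C and 3.47 ± 0.248% at 37C. ANO9, not among the 9, had 2.89 ± 0.516% and 4.34 ± 0.310%. LRRC8A made up 64.8 ± 1.59% of the 5 LRRC8 genes at 41C and 62.3 ± 1.00% at 37C, and LRRC8D 28.2 ± 1.54% and 29.7 ± 0.833%. CLCN7 and CLCN3 had 43.5 ± 1.41% and 42.3 ± 0.483% of the 7 CLC genes analysed at 41C, and 43.8 ± 2.20% and 41.2 ± 2.31% at 37C. CLIC1 had 86.8 ± 0.149% of the 5 CLIC genes analysed at 41C and 87.0 ± 1.11% at 37C, with CLIC4 nearly all of the rest.

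**Figure D2:**
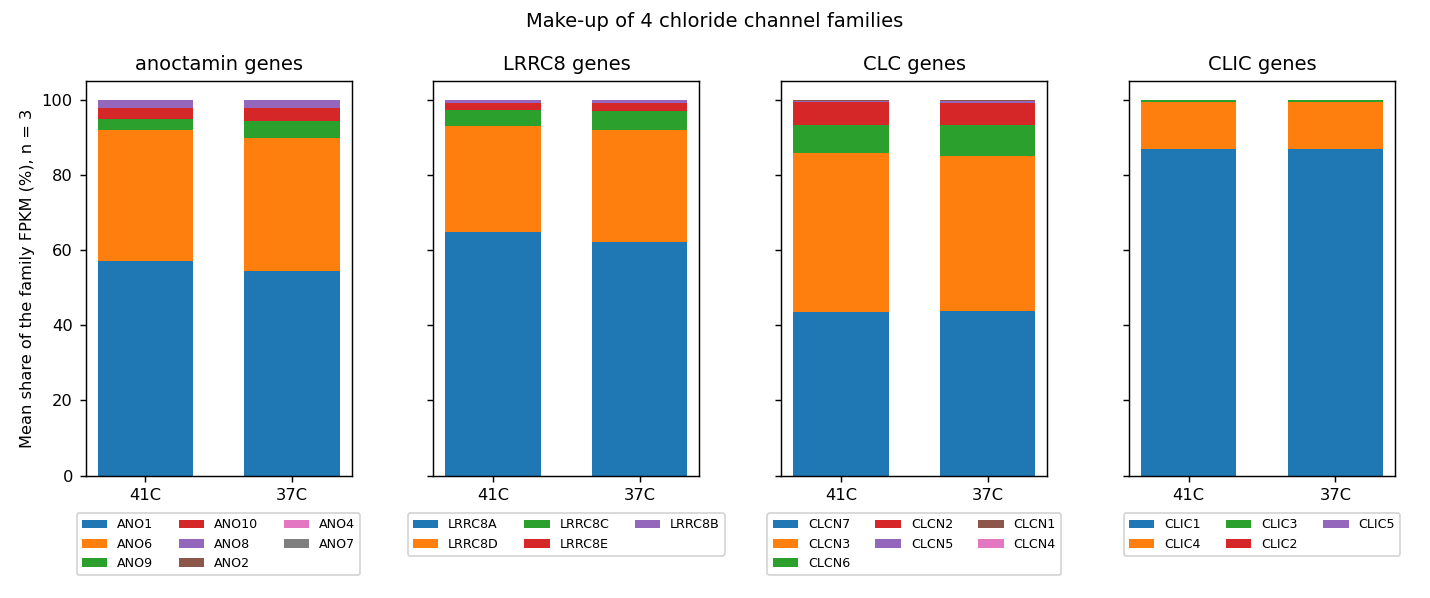
Stacked bars of the mean share (percent, n = 3 libraries) that each gene took of the summed FPKM of its family, with 41C left of 37C. ANO1, LRRC8A and CLIC1 take the largest part of their families at both temperatures (57.2%, 64.8% and 86.8% at 41C), and CLCN7 and CLCN3 take similar parts.

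After heat, ANO1 was the 1 gene of the 9 that passed the threshold, with a small rise, while 0.821% of all tested genes passed as higher and 1.09% in either direction. LRRC8A and ANO6 were higher in every 41C library than in any 37C library without passing. The remaining 6 genes, which are LRRC8D, CLCN3, CLCN7, CLIC1, CLIC4 and ANO10, overlapped between the temperatures. The 3 of 9 whose libraries did not overlap in CPM (counts per 1000000 counts, scaled by TMM factors) were all higher at 41C. Of all tested genes 11.2% were higher without overlap and 20% did not overlap in either direction. The median log2 change was 0.04 over the 9 genes and 0.00 over all tested genes, and 6 of 9 were positive, against 50.9% of all tested genes. Because the rule for these genes rested on this comparison, nothing is read from these counts. In bulk RNA, fewer cells with a transcript and less of it per cell cannot be told apart.

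**Figure D3:**
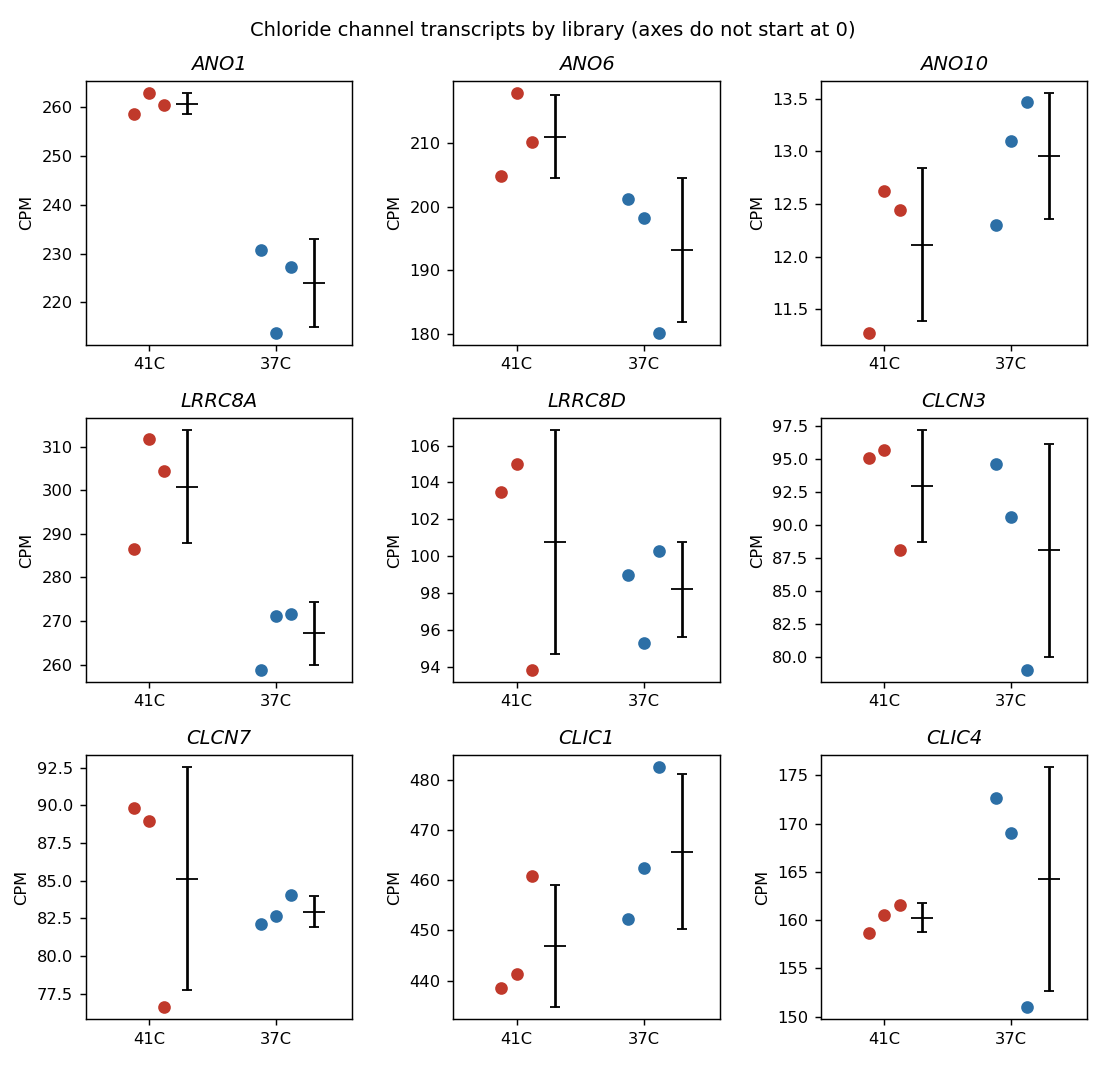
CPM of each of the 9 transcripts by library, 41C left of 37C, with the mean and SD of 3 libraries in black beside the points and axes that do not start at 0. The temperatures are apart for ANO1, LRRC8A and ANO6 and overlap for the other 6.

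ANO1, also known as TMEM16A, lies on chromosome 11 of GRCh38 at 70078302 to 70189528 on the plus strand in GENCODE release 29. It had 258.6, 262.9 and 260.5 CPM in the 41C libraries, against 230.8, 213.8 and 227.3 CPM in the 37C libraries. The 3 libraries at 41C lay close together and above all 3 at 37C, of which replicate 2 was lowest. The mean was 260.7 ± 2.14 CPM at 41C and 223.9 ± 8.99 CPM at 37C (SD, n = 3 each). ANO1 rose 1.16-fold (log2 change 0.22 ± 0.04 SE, 95% interval 0.13 to 0.31, edgeR adjusted p = 0.0228).

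The log2 change of ANO1 ran from 0.18 to 0.235 over 17 alternatives, and the call ended in 7 of them. These were the fits without 37C replicate 2 (edgeR adjusted p = 0.282) or any 1 of 41C replicates 1, 2 and 3 (edgeR adjusted p = 0.122, 0.206 and 0.109), upper-quartile scaling (edgeR adjusted p = 0.0516) and limma on FPKM with 1 or 0.1 added before the log2 (limma adjusted p = 0.121 and 0.110). The number of all genes past the threshold was also lower in these 7 fits. It was 17, 36, 5, 41, 110, 11 and 40 in the order given, against 131 in the main fit. The cause was not tested. An exact two-sided permutation test of ANO1 alone gave p = 0.1, the smallest that 3 libraries against 3 allow. The same test gave 0.1 for LRRC8A and for ANO6. Any gene whose libraries do not overlap gives this value, so it adds nothing to that separation. The antisense gene ANO1-AS1 shares 646 exonic bases with ANO1 on the opposite strand and was not analysed here, so the value of ANO1 is uncertain to that extent, the strand setting of the counting being unknown here.

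Gene length moved with the change across all genes, with a Spearman rho of 0.254 over 12056 genes, which are not independent replicates. ANO1 is 5433 bases long in the deposited values, longer than 67.0% of the genes tested. With each library corrected for its trend on length the change of ANO1 was 0.21 on the log2 scale and passed (edgeR adjusted p = 0.0399). The part of gene length in the change of ANO1 was not tested.

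ANO6, on chromosome 12 at 45215987 to 45440404 on the plus strand, had 204.9, 217.9 and 210.2 CPM at 41C, against 201.2, 198.2 and 180.2 CPM at 37C. The lowest 41C library lay just above the highest at 37C, and 37C replicate 3 was the low one. ANO6 did not pass, with a log2 change of 0.13 ± 0.05 SE (95% interval 0.02 to 0.23, edgeR adjusted p = 0.277). Without 37C replicate 3 it was 0.08. The pseudogene PLEKHA8P1 shares 55 exonic bases with ANO6 on the opposite strand and was not analysed here.

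ANO10, a little-studied anoctamin of intracellular membranes in which mutations cause a cerebellar ataxia, lies on chromosome 3 at 43354859 to 43691594 on the minus strand. It gave few counts, 235, 260 and 247 at 41C, against 245, 259 and 266 at 37C. Scaled, these were 11.3, 12.6 and 12.4 CPM at 41C and 12.3, 13.1 and 13.5 CPM at 37C, so the temperatures overlapped. The log2 change was -0.10 ± 0.10 SE (95% interval -0.31 to 0.11, edgeR adjusted p = 0.730), the widest interval of the 9. It ran from -0.14 without 37C replicate 1 to -0.0483 without 41C replicate 1. ANO10 shares 170 exonic bases with ABHD5, a lipase activator gene on the opposite strand whose own counts were 393, 382 and 304 at 41C, against 366, 298 and 326 at 37C. The strand setting used in counting, not given in the sources used here, bears on this overlap, and the value of ANO10 is uncertain.

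The other anoctamins analysed lay far below ANO1 and ANO6, but not all lay below ANO10. ANO9 had 2.41 ± 0.478 FPKM at 41C and 3.30 ± 0.240 FPKM at 37C, against 2.43 and 2.63 FPKM for ANO10. Of 7 other anoctamins listed, 3 could be tested and 0 passed in either direction, and their median log2 change was 0.08. ANO9, another anoctamin of epithelial cells, had 11.9 ± 2.37 CPM at 41C and 16.0 ± 1.11 CPM at 37C (SD, n = 3 each). Its log2 change was -0.43 ± 0.13 SE (edgeR adjusted p = 0.130), and the libraries did not overlap. ANO8, an anoctamin known as a tether between endoplasmic reticulum and plasma membrane, had a log2 change of 0.08 ± 0.12 SE (edgeR adjusted p = 0.830). Whether ANO1 changed differently from other anoctamins was not tested.

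LRRC8A, the obligatory subunit of the volume-regulated anion channel, lies on chromosome 9 at 128882112 to 128918039 on the plus strand. It had 286.5, 311.7 and 304.3 CPM at 41C, against 258.8, 271.2 and 271.5 CPM at 37C. All 3 libraries at 41C lay above those at 37C, and replicate 1 was the lowest at each temperature. LRRC8A missed the threshold, with a log2 change of 0.17 ± 0.05 SE (95% interval 0.08 to 0.27, edgeR adjusted p = 0.0832). It passed in 5 of 17 alternatives, which were DESeq2 (DESeq2 adjusted p = 0.0410), no filter on low counts (edgeR adjusted p = 0.0363), the replicate number as a block (edgeR adjusted p = 0.01002), the correction for GC content (edgeR adjusted p = 0.0129) and the fit without 37C replicate 3 (edgeR adjusted p = 0.00748).

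LRRC8D, the partner linked to passage of larger organic molecules and of platinum drugs, lies on chromosome 1 at 89821014 to 89936611 on the plus strand. It had 103.5, 105.0 and 93.8 CPM at 41C, against 99.0, 95.3 and 100.3 CPM at 37C. The lowest library of the 6 was 41C replicate 3, and the temperatures overlapped. LRRC8D had a log2 change of 0.04 ± 0.06 SE (95% interval -0.08 to 0.16, edgeR adjusted p = 0.829). Leaving out 41C replicate 3 gave 0.0858, and leaving out 41C replicate 2 gave 0.00675. LRRC8D shares 329 exonic bases with AC093423.3, a protein-coding gene of GENCODE on the same strand that was not analysed here, and its value is uncertain to that extent.

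The 3 other LRRC8 subunits were all tested and 0 passed in either direction (median log2 change -0.01). LRRC8C had 34.5 ± 1.12 CPM at 41C and 38.6 ± 3.91 CPM at 37C (log2 change -0.16 ± 0.08 SE, edgeR adjusted p = 0.379). LRRC8E had 8.16 ± 0.870 and 8.03 ± 0.639 CPM (log2 change 0.03 ± 0.13 SE, edgeR adjusted p = 0.959). The difference between the change of LRRC8A and that of its partners was not tested.

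CLCN3, the endosomal exchanger also called ClC-3, lies on chromosome 4 at 169612633 to 169723673 on the plus strand. It had 95.04, 95.7 and 88.0 CPM at 41C, against 94.6, 90.6 and 79.0 CPM at 37C. Replicate 3 was lowest at each temperature, and the temperatures overlapped. The log2 change was 0.08 ± 0.07 SE (95% interval -0.06 to 0.22, edgeR adjusted p = 0.658). Leaving out 37C replicate 3 took it to 0.01, and leaving out 37C replicate 1 took it to 0.13.

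CLCN7, the lysosomal exchanger also called ClC-7, which osteoclasts need to resorb bone, lies on chromosome 16 at 1444934 to 1475580 on the minus strand. It had 89.9, 89.0 and 76.6 CPM at 41C, against 82.1, 82.6 and 84.1 CPM at 37C. The 37C libraries lay within the range of those at 41C, whose replicate 3 was the lowest of all 6. The log2 change was 0.04 ± 0.06 SE (95% interval -0.09 to 0.17, edgeR adjusted p = 0.851), and its sign turned to -0.00240 without 41C replicate 1, while it was 0.11 without 41C replicate 3. Antisense genes of GENCODE share 1124 and 183 exonic bases with CLCN7 and were not analysed here.

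OSTM1, the membrane partner that stabilises CLCN7 in lysosomes, had 11.4 ± 1.03 CPM at 41C and 13.8 ± 0.618 CPM at 37C. All 3 libraries at 41C lay below those at 37C, without passing (log2 change -0.27 ± 0.10 SE, edgeR adjusted p = 0.253). CLCN6, an exchanger of late endosomes, had a log2 change of -0.06 ± 0.09 SE (edgeR adjusted p = 0.817). Of the 9 other CLC genes and partner subunits listed, 4 could be tested, 0 rose and 0 fell, and the median was -0.17.

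CLIC1 lies on chromosome 6 at 31730581 to 31739763 on the minus strand, within the major histocompatibility region. It had 438.6, 441.3 and 460.9 CPM at 41C, against 452.2, 462.4 and 482.5 CPM at 37C. Replicate 3 was highest at each temperature and the temperatures overlapped, although in the deposited FPKM, which are scaled to the total count alone, 251.8, 252.4 and 261.1 at 41C lay below 263.3, 267.2 and 277.3 at 37C. Its log2 change was -0.06 ± 0.04 SE (95% interval -0.15 to 0.03, edgeR adjusted p = 0.585), and ran from -0.0865 without 37C replicate 1 to -0.0320 without 37C replicate 3. CLIC1 shares 37 exonic bases with DDAH2 on the same strand. CLIC1 was the shortest of the 9 at 1740 bases, with 12.9% of tested genes shorter, and its change was -0.00982 with the length correction.

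CLIC4, a CLIC protein known from mouse keratinocytes to move to the nucleus under stress and to take part in TGF-beta signalling, lies on chromosome 1 at 24745357 to 24844324 on the plus strand. It had 158.7, 160.5 and 161.6 CPM at 41C, against 172.7, 169.0 and 151.0 CPM at 37C. The 41C libraries were close together and lay inside the range of the 37C libraries, where replicate 3 was low. The log2 change was -0.04 ± 0.05 SE (95% interval -0.15 to 0.08, edgeR adjusted p = 0.829). Without 37C replicate 3 it was -0.09, and without 37C replicate 1 it was -0.00322.

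Both CLIC genes have processed pseudogenes in GENCODE (CLIC1P1 for CLIC1 and 3 for CLIC4), and CLCN3 has CLCN3P1. None of these was analysed here, and the handling of reads that fit several places, not given in the sources used here, leaves these 3 genes uncertain to that extent. Of the 4 other CLIC genes listed, only CLIC3 could be tested, with 1.72 ± 0.400 CPM at 41C and 1.87 ± 0.438 CPM at 37C (log2 change -0.12 ± 0.26 SE, edgeR adjusted p = 0.889).

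Chloride genes outside the 4 families were listed to show what else handles chloride in these cells. Over all 62 other listed genes, the same families' remaining members included, 32 could be tested, and 0 rose and 0 fell by edgeR. Of the 32, 4 had an unadjusted edgeR p under 0.05, as did 1652 of all 12056 tested genes. Of the 32 log2 changes 16 were positive and 16 negative, with a median of 0.00, as over all genes tested. The count that passed was 1 with DESeq2 and 0 with limma-voom.

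Among other anion channels 6 of 13 could be tested and 0 passed, with a median of -0.05. CLNS1A, which encodes a splicing-complex chaperone first described as a chloride conductance regulator, had 120.1 ± 3.24 CPM at 41C and 123.3 ± 3.47 CPM at 37C (log2 change -0.04 ± 0.05 SE, edgeR adjusted p = 0.802). CLCA2, a p53 target of stratified epithelia that modulates chloride currents, had 104.2 ± 2.30 and 109.6 ± 3.04 CPM (log2 change -0.07 ± 0.05 SE, edgeR adjusted p = 0.563). The CLCA2 libraries at 41C lay below those at 37C by a small margin.

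Among cation-chloride cotransporters and the WNK kinases that control them 11 of 15 could be tested and 0 passed, with a median of 0.06. WNK1, a kinase that senses chloride and cell volume, had 247.9 ± 5.31 CPM at 41C and 218.7 ± 5.78 CPM at 37C. Its libraries did not overlap, and its log2 change of 0.18 ± 0.04 SE missed the threshold narrowly (edgeR adjusted p = 0.0547). OXSR1, the kinase that WNK proteins activate, had 88.3 ± 2.75 CPM at 41C and 87.7 ± 3.13 CPM at 37C (log2 change 0.01 ± 0.05 SE, edgeR adjusted p = 0.966).

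Among anion exchangers 4 of 11 could be tested and 0 passed, with a median of 0.03. SLC4A2, a chloride/bicarbonate exchanger, had a log2 change of 0.03 ± 0.05 SE (edgeR adjusted p = 0.881). SLC26A2, a sulfate/chloride exchanger, had one of 0.17 ± 0.11 SE (edgeR adjusted p = 0.581).

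**Figure D4:**
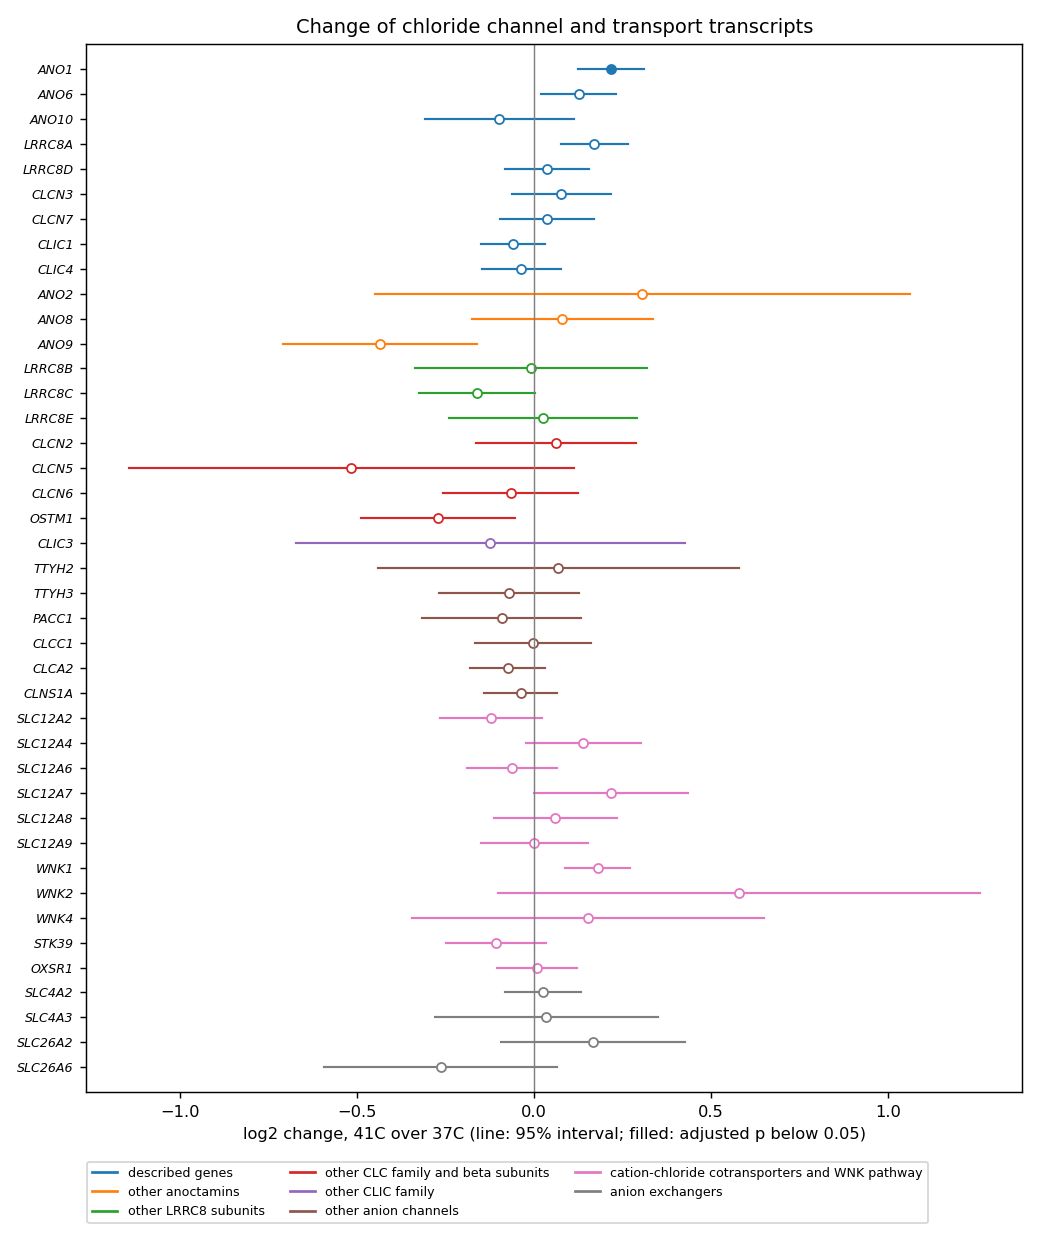
Log2 change at 41C over 37C with its 95% interval for the 9 described genes and the 32 other chloride genes that could be tested, coloured by list; a filled point passed an edgeR adjusted p of 0.05. Only ANO1 is filled (log2 change 0.22), and ANO2, CLCN5, CLIC3, TTYH2, WNK2 and WNK4 have the widest intervals.

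The genes whose profiles over the 6 libraries were most like that of ANO1 were UBE3B, CD44, SVIL, IGF2R and SPIRE1. Likeness was the root-mean-square distance between log2 CPM values centred on each gene's mean, among 10984 genes, and was 0.0163, 0.0194, 0.0246, 0.0249 and 0.0252 for these 5. CD44, the hyaluronan receptor, had 1069, 1079 and 1072 CPM at 41C, against 924.6, 891.3 and 947.8 CPM at 37C. As with ANO1, its 41C libraries were close together and 37C replicate 2 was lowest, which follows from the choice by likeness. Among the described genes LRRC8A was nearest to ANO1, at a distance of 0.0642 (rank 432 of the 10984 genes), followed by ANO6 at 0.0823 (rank 1102). These distances are a description over 6 libraries that share their temperature labels.

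**Figure D5:**
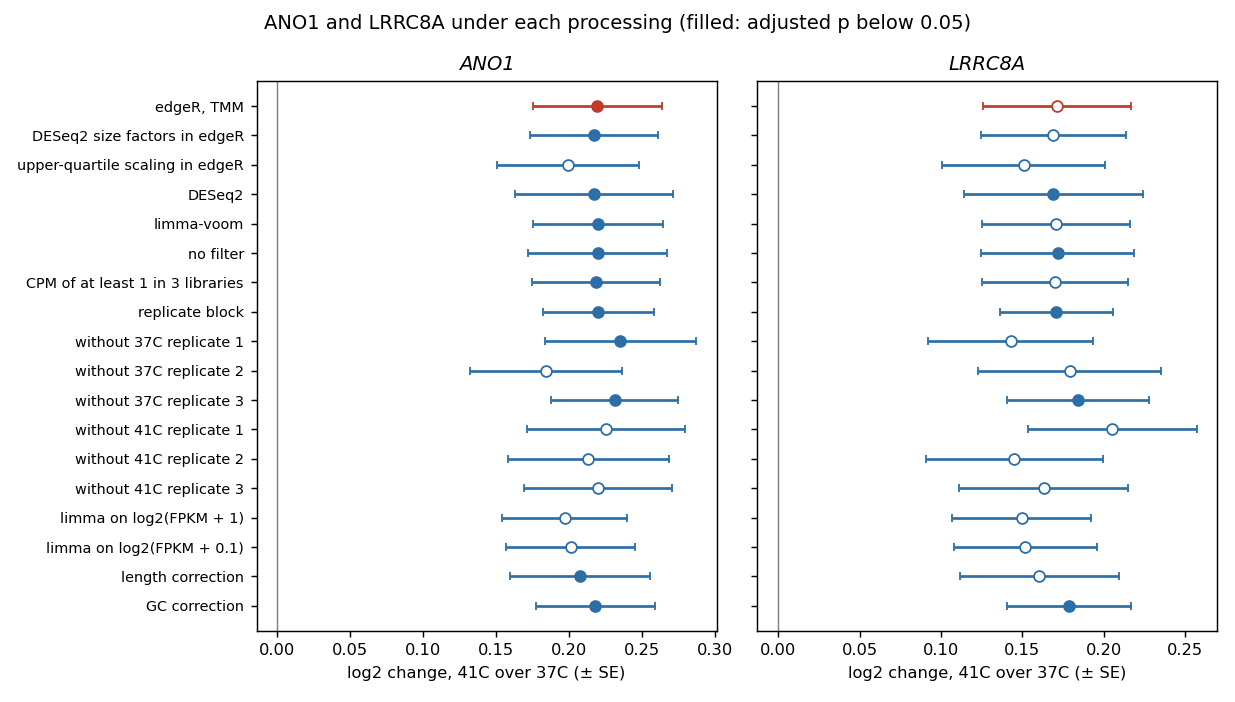
Log2 change at 41C over 37C with its SE for ANO1 and LRRC8A under the edgeR fit with TMM scaling and 17 alternatives; filled points passed an adjusted p of 0.05. Every point lies above 0, ANO1 is filled in 11 of 18 fits and LRRC8A in 5 of 18.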

How the data were processed

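Libraries from HaCaT cells at 41C and 37C (3 each) were compared. The submitters' processing notes name Trimmomatic 0.36, a read trimmer, HISAT2, an aligner, and the build GRCh38.p13. The counter, its annotation and its use of strand were not given in the sources used here. The authors deposited raw read counts for each gene symbol, as whole numbers. The authors' deposited FPKM values equal the count per kilobase of 1 gene length and per 1000000 counts of the library, within 0.01% for 100% of nonzero values, so they are no independent measurement and were used for levels between genes and for alternative tests.

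The test was that of edgeR 4.0.16 under R 4.3.3 (filterByExpr, TMM, robust quasi-likelihood fit, two-sided, Benjamini-Hochberg adjustment over 12056 genes, threshold 0.05). Intervals are 95% intervals from that fit. The procedure was tested on simulated data with 200 genes changed. The spread between libraries was set as a trend over level or gene by gene. At 1.2-fold, 32% and 27% of the changed genes were recovered, and at 2-fold 91.5% and 91%. False calls at 1.2-fold were 4 of 68 and 8 of 62 calls, and at 1.5-fold 7 of 170 and 23 of 181 calls. With no gene changed, 0 and 6 genes were called. Genes with small changes that did not pass may therefore have been missed, and a gene that passed may be a false call. Genes named are the 9 described genes, the 2 tested genes with the highest FPKM of each list of other chloride genes, and the 5 genes nearest to ANO1; others were named after their values were seen. The members and lists were chosen with earlier results of these data known. Alternatives were DESeq2 1.42.0, limma 3.58.1 (voom, or log2 of FPKM plus 1 or 0.1), other scaling factors, other filters, the replicate number as a block, leaving out each library, and corrections for gene length or GC content (splines with 4 degrees of freedom). GC content came from GENCODE release 29 for 97.3% of symbols. A planned comparison of protein sequences was not made.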

Additional observations from a re-analysis of the deposited data

How the results depend on the processing

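The 9 log2 changes kept their sign in all 17 alternatives, except CLCN7, at -0.00240 without 41C replicate 1 (0.108 at the highest). ANO1 no longer passed at 0.20 with upper-quartile scaling and at 0.20 with limma on log2(FPKM + 1) or log2(FPKM + 0.1), and ran from 0.18 to 0.24 with 1 library left out. LRRC8A passed at 0.17 with DESeq2, without a filter and with the replicate block, and at 0.18 with the GC correction, and ran from 0.14 to 0.21 with 1 library left out. The count of described genes that passed was 1; it was 0 with upper-quartile scaling and both FPKM fits, 2 with DESeq2, no filter, the replicate block and the GC correction, and 0 to 2 with 1 library left out. The count of other chloride genes was 0; it was 1 with DESeq2 and the GC correction (WNK1), 2 with no filter and the replicate block (WNK1 and ANO9), and 0 to 3 with 1 library left out. Of all genes 131 passed, 99 higher and 32 lower at 41C, against 57 and 53 with upper-quartile scaling; the count was 217 with DESeq2, 284 with no filter, 438 with the replicate block, 426 with the GC correction, 11 and 40 in limma on log2(FPKM + 1) and log2(FPKM + 0.1), and 5 to 805 with 1 library left out (5 without 41C replicate 2 and 805 without 37C replicate 3). The cause was not tested. The labels do not say whether same-numbered libraries belong together. Their deviations correlated at 0.082, -0.019 and 0.077, and 41C replicate 2 correlated best with 37C replicate 1. With so few pairs these values cannot decide whether the libraries were paired. With DESeq2 ANO10 had no adjusted p. Low counts limit ANO10 and the scarce family members.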

Other observations

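Of the other chloride genes listed, 19 were too scarce to be tested, with at most 13 counts in a library (CLCN1). CFTR, the cyclic AMP-regulated chloride channel of many epithelia, had 0 counts at 41C and 1 count at 37C over 3 libraries each. The calcium-activated bestrophin channel BEST1 had 4 counts at 41C and 1 count at 37C. At these counts a difference was not detectable.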
